A study of Homo sapiens with 6 samples.

Results

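The collagen genes of colon fibroblasts were described after silencing of *LTBP2*, which codes for an extracellular matrix protein of the latent TGF-beta binding protein family. The members were the protein-coding genes with a symbol of the form COL, number, A, number, without *COL17A1*, *COL6A1*, *COL6A2* and *COL6A3*. They were 40 of the 60663 genes in the deposited table and fell into 11 fibrillar, 9 network and 10 FACIT genes and 10 genes of other classes. CCD18Co, an established human line of normal colon fibroblasts, was transfected for 6 h by lipofection, either with siRNAs that target *LTBP2* (1 pool, siLTBP2) or with non-targeting siRNAs (siNT), and RNA was taken at 48 h. Each group had 3 libraries of total RNA depleted of ribosomal RNA, with 44663424 to 53576899 counts on genes. The 6 libraries came from 1 cell line and 1 siRNA pool against *LTBP2*, and there were no untransfected cells. The labels number the replicates but do not say whether they were separate cultures, so the spread between them may be technical.

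Collagens are trimers of alpha chains wound into a triple helix, and each chain has its own gene. Fibrillar collagens such as types I, III and V assemble into the banded fibrils that give connective tissue its tensile strength, and fibroblasts are their main source. Type IV collagen builds the meshwork of basement membranes, whereas the short-chain types VIII and X form open lattices. FACIT collagens do not form fibrils themselves and sit on the surface of fibrils, and the remaining members include the anchoring-fibril collagen *COL7A1*, the membrane-spanning *COL13A1* and the basement membrane zone collagens *COL15A1* and *COL18A1*.

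The genes of the 2 most common type IV chains, *COL4A1* and *COL4A2*, lie head to head, and the stretch between their start sites is shown because the 2 genes are compared below as partner chains that share a promoter region. By RefSeq (GRCh38.p14), *COL4A1* starts on the minus strand of chromosome 13 at 110307157 and *COL4A2* on the plus strand at 110307284, 127 bases away. The 126 bases between the starts lie at chr13:110307158-110307283 and have a GC content of 80.2%. They are written on the plus strand, the direction of *COL4A2*, with a CCAAT box and a GC box (GGGCGG) in capitals:
COL4A1-COL4A2: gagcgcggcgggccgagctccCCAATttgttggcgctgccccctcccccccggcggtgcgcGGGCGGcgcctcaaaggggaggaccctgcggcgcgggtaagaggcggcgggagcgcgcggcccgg
The CCAAT box lies at chr13:110307179-110307183 and the GC box at chr13:110307219-110307224, so that each falls within the promoter windows of both genes (250 bases before the start to 50 after it). GENCODE 44 gives *COL4A2* an earlier start at 110305812, and by that annotation the 2 genes overlap by 1346 bases on opposite strands. RefSeq windows were found for 29 of the 40 members, 41 windows in all, and 11 members, among them *COL8A1*, *COL1A1* and *COL1A2*, had none. Some windows overlap, such as those of *COL4A1* and *COL4A2* by 226 bases and those of *COL5A1*, so a site can be counted more than once. Searched on both strands, CCAAT was present in 13 of the 41 collagen windows (31.7%) and in 34.6% of all 35116 windows, and the GC box in 23 (56.1%) against 45.0%. The TATA box (TATAAA) was found in 6 windows (14.6%) against 11.5%, and the AP-1 motif (TGANTCA) in 1 (2.44%) against 7.71%. Of the other genes called below, the *COL13A1* window held 1 match to TATAAA, at position -236 from the start, and the *COL27A1* window 3 matches to the GC box. These are matches of letters only.

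*LTBP2* was measured first as a check of the labels. Its level was 24.97, 23.1 and 21.2 CPM (counts scaled to library size, normalized by TMM) in siNT and 6.49, 8.61 and 6.00 CPM in siLTBP2, replicates 1 to 3 in each case. The siLTBP2 libraries kept 30.5% of the siNT level, with a log2 fold change of -1.72 (SE 0.15, adjusted p = 6.6e-05 by edgeR's quasi-likelihood test). Fibroblast genes were abundant in every library, with *VIM*, an intermediate filament gene, at 4524 to 6420 CPM and all 7 listed fibroblast markers past the low-count filter. The summed level of 4 epithelial markers was at most 0.317 CPM, that of 4 endothelial markers at most 2.03 CPM and that of 4 immune markers at most 0.574 CPM. In bulk RNA, fewer cells that express a gene and less RNA per cell cannot be told apart.

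Of the 40 collagen genes, 21 passed edgeR's low-count filter and were tested, namely 10 fibrillar, 5 network, 2 FACIT and 4 other genes. A gene was called changed at a Benjamini-Hochberg adjusted p below 0.05 over all 16920 genes tested. *COL8A1*, *COL13A1* and *COL4A1* were higher and *COL27A1* was lower after silencing of *LTBP2*. The genes of types I and III, the members of highest level in siNT, and those of type V did not pass this test, which had no replicate block. Called genes were thus 4 of the 21 collagen genes, and 19.3% of all genes tested were called. By direction, 3 of 21 members were higher and 1 lower, beside 9.76% of all genes higher and 9.51% lower. At the stricter rule of the study (adjusted p under 0.01, change of more than 2-fold) 1 collagen gene remained, *COL8A1*, beside 2.57% of all genes. The groups did not overlap in 5 of the 21 members (23.8%), namely the 4 called genes and *COL24A1*, beside 37.0% of all genes. Counted in either direction, the shares of called and of non-overlapping members were not above those of all genes in this fit. Under some other settings the called share was above that of all genes. Examples were the replicate block (11 of 21 beside 36.2%) and no low-count filter (10 of 35 beside 11.5%). No excess is read from these counts, as they turn on the setting. The 3 of 21 higher calls and the 1 of 21 at the stricter rule are too few to be read against the shares of all genes. The fold changes were positive in 11 members and negative in 10, and their median log2 fold change was 0.04, beside -0.0056 for all genes.

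**Figure D1:**
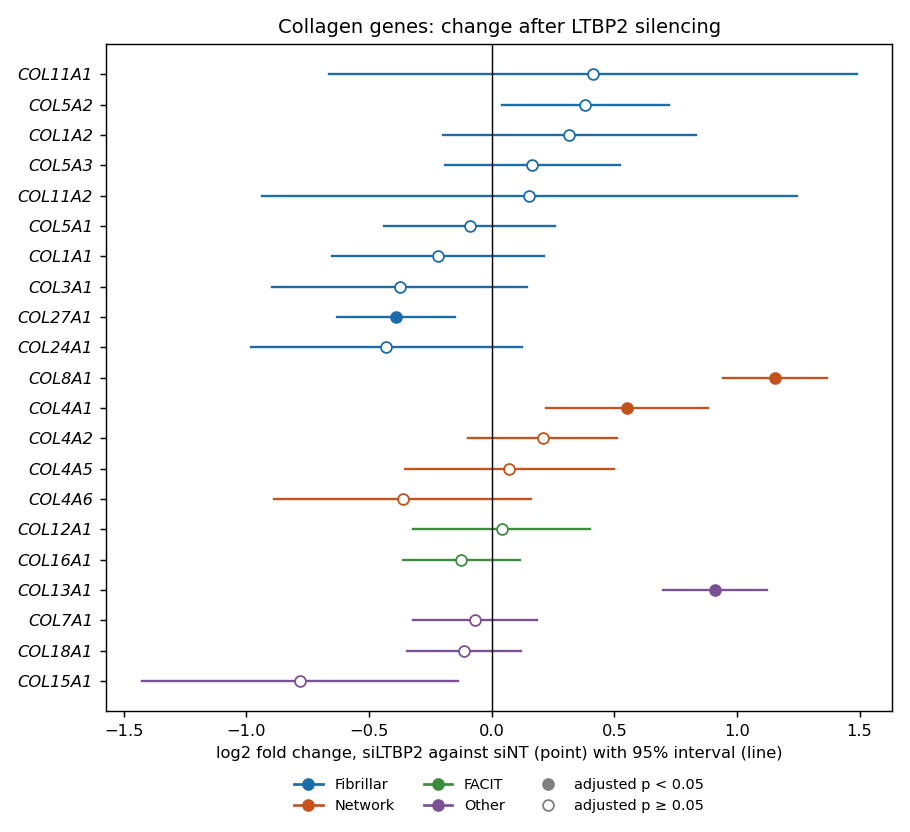
Log2 fold change of siLTBP2 against siNT (horizontal axis) for the 21 collagen genes tested, grouped and coloured by class, with points for the estimate and lines for its 95% interval. Filled points mark the 4 genes with an adjusted p below 0.05, of which *COL8A1*, *COL4A1* and *COL13A1* lie to the right of 0 and *COL27A1* to the left.

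The levels of different genes were compared as CPM per kb of exon, which takes the length of each gene into account. In siNT the order was led by *COL1A1* with 253 ± 54.2 CPM per kb (SD, n = 3), which ranked 79 among all 16920 genes tested. It was followed by *COL1A2*, its partner in type I collagen, with 160 ± 39.5 CPM per kb (rank 167) and by *COL3A1*, the type III chain, with 133 ± 29.4 CPM per kb (rank 199). The ranges of *COL1A2* and *COL3A1* overlapped among the siNT libraries, whereas *COL1A1* lay above both in its lowest library. *COL12A1*, a FACIT chain found on type I fibrils, came next with 46.8 ± 9.59 CPM per kb, apart from its neighbours on both sides.

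Behind it, *COL5A1* (30.2 ± 5.95 CPM per kb) and *COL5A2* (25.8 ± 3.74 CPM per kb), whose type V collagen nucleates fibrils of type I, overlapped in their siNT ranges. Within each siNT library *COL5A1* was the higher, with a ratio of 1.23, 1.17 and 1.10. The ranges of *COL5A2*, *COL18A1* (21.4 ± 2.63 CPM per kb) and *COL4A2* (21.3 ± 2.97 CPM per kb) overlapped too, with *COL5A2* above the others in every siNT library. *COL7A1* (14.2 ± 0.824 CPM per kb) lay below *COL4A2* in every siNT library and overlapped with *COL4A1* (12.2 ± 2.12 CPM per kb), which overlapped in turn with the FACIT gene *COL16A1* (9.74 ± 0.700 CPM per kb). Then followed *COL4A5* with 7.46 CPM per kb, and *COL4A6*, *COL8A1*, *COL27A1* and *COL13A1* lay close together between 1.70 and 2.35 CPM per kb. The lowest members tested were *COL15A1* (1.03), *COL5A3* (0.547), *COL24A1* (0.0804), *COL11A2* (0.0505) and *COL11A1* (0.0307 CPM per kb). None of the 4 called genes was among the 9 collagen genes of highest level, and in siNT *COL4A1* held rank 3658 and *COL8A1* rank 9613 among all genes.

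**Figure D2:**
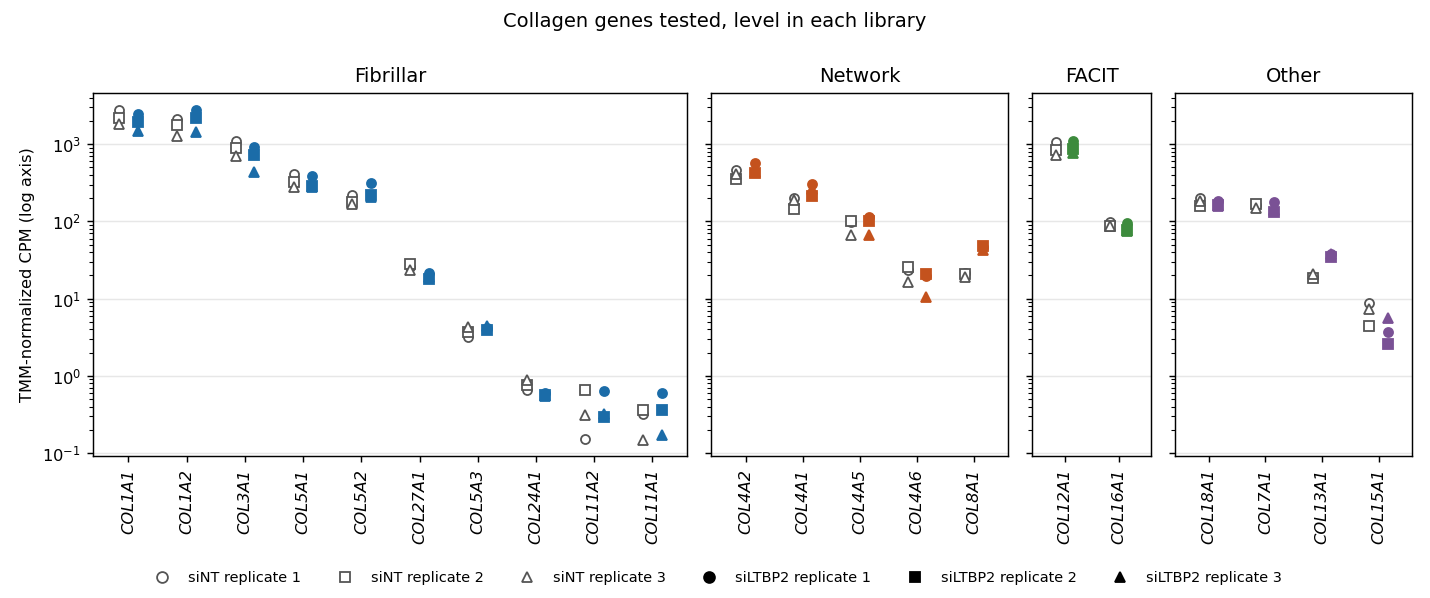
TMM-normalized CPM (log axis) of the 21 collagen genes tested in each of the 6 libraries, in panels by class, with open symbols for siNT, filled symbols for siLTBP2 and 1 symbol shape per replicate number. The siLTBP2 symbols of *COL8A1* (42.2 to 48.5 CPM) and *COL13A1* (34.7 to 37.9 CPM) lie above all siNT symbols, while those of the abundant fibrillar genes overlap.

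Among the network collagens, *COL8A1* had the largest change of any collagen gene tested. It codes for the alpha 1 chain of type VIII collagen, a short-chain collagen known from vessel walls and from the membrane under the corneal endothelium, and lies on the plus strand of chromosome 3 (GRCh38, 99638475 to 99799226). Its level was 21.3, 21.1 and 19.3 CPM in siNT and 46.6, 48.5 and 42.2 CPM in siLTBP2. The groups stood far apart, with means of 20.6 ± 1.14 and 45.8 ± 3.27 CPM (SD, n = 3), and the gene rose 2.23-fold. The log2 fold change was 1.15 (SE 0.10, 95% interval 0.94 to 1.37, adjusted p = 5.6e-05 by edgeR's quasi-likelihood test). The call held under all 8 other settings and with each of the 6 libraries left out, where the log2 fold change lay between 1.11 and 1.21. Per kb of exon *COL8A1* went from 2.19 CPM to 4.86 CPM, still under *COL4A1* and *COL4A2*. *COL8A2*, which codes for the other chain of type VIII collagen, was nearly silent with 29 counts over all 6 libraries and was not tested.

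*COL4A1*, the first of the ubiquitous basement membrane chains, also rose. It was at 202, 143 and 190 CPM in siNT and at 307, 215 and 261 CPM in siLTBP2. The lowest siLTBP2 library lay just above the highest siNT library, and the means were 178 ± 31.1 and 261 ± 45.7 CPM (SD, n = 3), a rise of 1.47-fold. The log2 fold change was 0.55 (SE 0.15, 95% interval 0.22 to 0.88, adjusted p = 0.027 by edgeR's quasi-likelihood test). The call was lost without siNT replicate 2 (log2 fold change 0.42, adjusted p = 0.090) and without siLTBP2 replicate 1 (0.42, adjusted p = 0.086), and it held under the 8 other settings and the 4 other libraries left out.

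*COL4A2*, the head-to-head neighbour of *COL4A1* and the network gene of highest level per kb, was at 467, 353 and 409 CPM in siNT and at 565, 424 and 430 CPM in siLTBP2. The groups overlapped, and its log2 fold change of 0.21 did not pass the test (SE 0.14, 95% interval -0.10 to 0.51, adjusted p = 0.33 by edgeR's quasi-likelihood test). The interval thus reached past 0 on one side and included a rise nearly as large as that estimated for *COL4A1* on the other. Whether the counting used the strand is not given in the sources used here, so reads from the 1346 bases where the 2 gene models overlap could not be told apart without it.

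The other type IV genes come in 2 further head-to-head pairs. *COL4A5* and *COL4A6*, separated by 340 bases on the X chromosome, were both expressed. *COL4A5* was at 97.2, 101 and 67.3 CPM in siNT and at 113, 99.8 and 66.3 CPM in siLTBP2, with a log2 fold change of 0.07 (SE 0.19, adjusted p = 0.84 by edgeR's quasi-likelihood test). *COL4A6* was at 23.4, 25.4 and 16.6 CPM in siNT and at 19.7, 20.9 and 10.4 CPM in siLTBP2, with a log2 fold change of -0.36 (SE 0.24, adjusted p = 0.33 from the same test). Both overlapped between the groups, and in both the third replicate of each group was the lowest. *COL4A3* and *COL4A4*, the chains of the glomerular basement membrane, lie 170 bases apart and had 6 and 8 counts over all libraries. *COL10A1*, the collagen of hypertrophic cartilage, had 26 counts and was not tested.

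In sum over the class, the network collagens were at 812, 644 and 702 CPM in siNT and at 1052, 808 and 810 CPM in siLTBP2. The lowest siLTBP2 sums lay just under the highest siNT sum, so the groups overlapped slightly, and the log2 ratio of the mean sums was 0.31. They made up 8.94, 8.83 and 11.4% of all collagen CPM in siNT and 10.8 to 13.9% in siLTBP2, which also overlapped. The class median log2 fold change was 0.21 over 5 genes, of which 2 were called, both higher, beside 9.76% of all genes called higher. The class is too small for its share to be read against that of all genes.

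Of the fibrillar genes, *COL27A1* was the one called, and it was lower. It codes for a fibrillar chain with a short, interrupted helix known from cartilage, and lies on the plus strand of chromosome 9 (GRCh38, 114155537 to 114312511). Its level was 25.7, 27.7 and 23.6 CPM in siNT and 21.5, 17.9 and 19.2 CPM in siLTBP2. The highest siLTBP2 library lay just below the lowest siNT library, with means of 25.7 ± 2.08 and 19.6 ± 1.83 CPM (SD, n = 3). Its log2 fold change was -0.39 (SE 0.11, 95% interval -0.63 to -0.15, adjusted p = 0.029 by edgeR's quasi-likelihood test). The direction was the same under every setting, but the call was lost without siNT replicate 1 (adjusted p = 0.070), siNT replicate 2 (0.093), siLTBP2 replicate 2 (0.117) or siLTBP2 replicate 3 (0.055).

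*COL1A1*, the major chain of type I collagen, was at 2807, 2182 and 1845 CPM in siNT and at 2481, 1918 and 1475 CPM in siLTBP2. The ranges overlapped widely, and its log2 fold change was -0.22 (SE 0.20, 95% interval -0.65 to 0.21, adjusted p = 0.49 by edgeR's quasi-likelihood test). *COL1A2*, the second chain, was at 2135, 1757 and 1283 CPM in siNT and at 2809, 2204 and 1433 CPM in siLTBP2, with a log2 fold change of 0.32 (SE 0.23, 95% interval -0.20 to 0.83, adjusted p = 0.39). The estimates of the 2 partner chains thus had opposite signs, and neither passed the main test. *COL3A1*, whose product is found in fibrils together with type I collagen, was at 1097, 898 and 700 CPM in siNT and at 912, 729 and 438 CPM in siLTBP2. Its log2 fold change was -0.37 (SE 0.24, 95% interval -0.89 to 0.15, adjusted p = 0.31 by edgeR's quasi-likelihood test), and its groups overlapped. With no low-count filter, *COL1A2* (adjusted p = 0.041) and *COL3A1* (adjusted p = 0.0036) were called by edgeR's quasi-likelihood test, as were *COL5A2*, *COL4A6* and *COL15A1*. The log2 fold changes of *COL1A2* and *COL3A1* were nearly the same, 0.30 and -0.39, but their standard errors were smaller, 0.11 for each. The estimates hardly moved, so these calls are not read as further evidence of a change.

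The type V genes did not pass the main test either. *COL5A1* was at 411, 319 and 282 CPM in siNT and at 386, 286 and 279 CPM in siLTBP2 (log2 fold change -0.09, SE 0.16). *COL5A2* was at 220, 179 and 168 CPM in siNT and at 310, 221 and 207 CPM in siLTBP2, with a log2 fold change of 0.38 (SE 0.15, 95% interval 0.04 to 0.72, adjusted p = 0.11 by edgeR's quasi-likelihood test). The *COL5A2* groups overlapped only through siNT replicate 1, which lay above siLTBP2 replicate 3. *COL5A3* had a log2 fold change of 0.17 at about 4 CPM in both groups (3.18 to 4.46 CPM). *COL24A1*, a minor fibrillar chain, was at 0.649, 0.770 and 0.890 CPM in siNT and at 0.597, 0.571 and 0.550 CPM in siLTBP2. Its groups did not overlap, but at these low counts its log2 fold change of -0.43 (SE 0.25, adjusted p = 0.27 by edgeR's quasi-likelihood test) was not called. *COL11A1* and *COL11A2*, known from cartilage, lay under 0.65 CPM in all libraries with standard errors of 0.49 on the log2 scale. *COL2A1*, the defining collagen of cartilage, had 4 counts over all libraries.

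A shared pattern of these genes lay across the libraries and went with the replicate number in both groups. Of the 10 collagen genes with a mean of at least 100 CPM in siNT, 9 had their highest siNT level in replicate 1, and all 10 had their highest siLTBP2 level in replicate 1. Replicate 3 was the lowest for 7 of the 10 in siNT and for 7 in siLTBP2. These counts were not made over all genes, so the pattern cannot be called particular to collagen genes. In the fit with the replicate number as a block, 11 of 21 collagen genes were called, beside 36.2% of all genes. *COL1A1*, *COL1A2*, *COL3A1*, *COL4A2* and *COL5A2* were among them, with values given at the end. The 40 collagen genes made up 0.894, 0.764 and 0.622% of all counts in siNT and 0.933, 0.741 and 0.580% in siLTBP2. The spread within each group was therefore much larger than the difference between the group sums, which were 7516 ± 1465 and 7628 ± 1863 CPM (SD, n = 3). The fibrillar genes held 69.7 to 73.8% of the collagen CPM in siNT and 66.0 to 72.4% in siLTBP2, with class sums of 5458 ± 1199 and 5387 ± 1534 CPM and a median log2 fold change of 0.03.

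Partner chains of 1 trimer were compared within each library, where their ratio varied less between replicates than their levels did. Per kb of exon, the ratio of *COL1A1* to *COL1A2* was 1.58, 1.49 and 1.73 in siNT and 1.06, 1.04 and 1.24 in siLTBP2. Type I collagen is typically made of alpha 1 chains in excess over alpha 2, and the transcript ratio was lower in every siLTBP2 library than in any siNT library, by 0.52 on the log2 scale (mean log2 ratio 0.67 ± 0.11 in siNT and 0.15 ± 0.13 in siLTBP2, SD, n = 3). The ratio of *COL5A1* to *COL5A2* was 1.23, 1.17 and 1.10 in siNT and 0.816, 0.848 and 0.884 in siLTBP2. It moved the same way, with a geometric mean of 1.16 in siNT and 0.849 in siLTBP2. The ratio of *COL4A1* to *COL4A2* was 0.568, 0.532 and 0.610 in siNT and 0.713, 0.668 and 0.798 in siLTBP2. Here the alpha 1 chain gained on its partner, with a difference of 0.35 on the log2 scale, in the pair whose start sites flank the sequence printed above. None of the 3 ratios overlapped between the groups. Of all single genes tested, 37.0% did not overlap either. The share among ratios of other gene pairs was not computed, so no excess is read from the 3 ratios. With each library left out the differences lay between -0.60 and -0.47 for type I, between -0.50 and -0.42 for type V and between 0.28 and 0.41 for type IV. No test was made of the ratios, which do not depend on the scaling of a library but do depend on the exon lengths used for their absolute size.

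**Figure D3:**
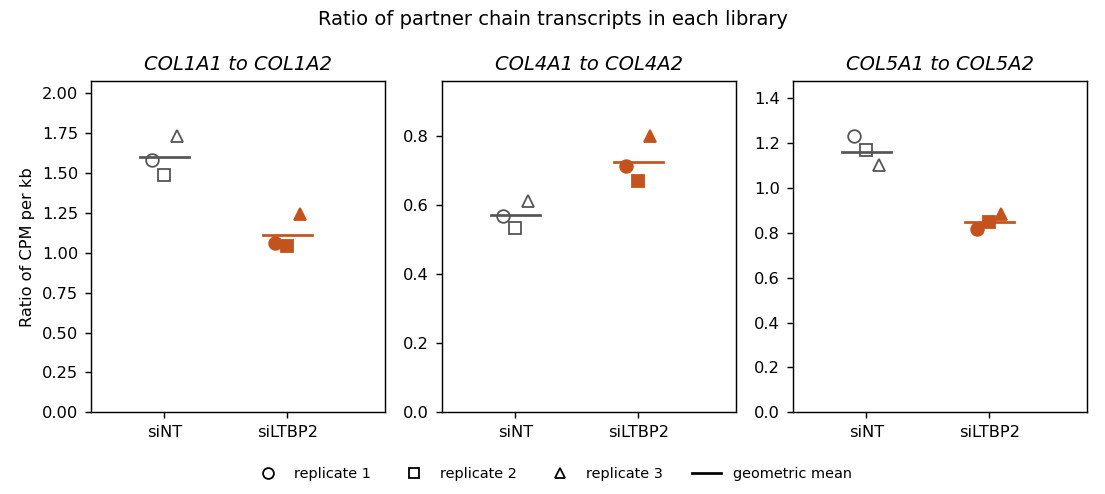
Ratio of CPM per kb of 2 partner chains (vertical axes, starting at 0) in each library of siNT and siLTBP2, with 1 symbol shape per replicate number and lines at the geometric mean. The ratio of *COL1A1* to *COL1A2* falls from 1.60 to 1.11 and that of *COL5A1* to *COL5A2* from 1.16 to 0.849, while that of *COL4A1* to *COL4A2* goes from 0.569 to 0.724, without overlap between the groups.

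The FACIT genes showed little difference. *COL12A1*, the FACIT gene of highest level per kb, was at 1080, 845 and 724 CPM in siNT and at 1089, 872 and 764 CPM in siLTBP2. The 2 groups covered nearly the same range, and its log2 fold change was 0.04 (SE 0.16, 95% interval -0.32 to 0.40, adjusted p = 0.90 by edgeR's quasi-likelihood test). *COL16A1* was at 86.1 to 97.6 CPM in siNT and 75.0 to 96.0 CPM in siLTBP2 (log2 fold change -0.12). The other 8 FACIT genes were below the filter. *COL9A1*, *COL19A1* and *COL22A1* had no count in any library, and *COL21A1*, with 44 counts over all libraries, had the most. *COL9A2* had 22 counts, of which 20 were in siLTBP2 replicate 2 alone.

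Among the genes of other classes, *COL13A1* rose. It codes for a transmembrane collagen found at cell adhesions and at the neuromuscular junction, and lies on the plus strand of chromosome 10 (GRCh38, 69801880 to 69964275). Its level was 19.3, 18.3 and 20.99 CPM in siNT and 37.9, 34.7 and 37.5 CPM in siLTBP2. The groups were well separated, with means of 19.5 ± 1.38 and 36.7 ± 1.75 CPM (SD, n = 3), a rise of 1.88-fold. The log2 fold change was 0.91 (SE 0.10, 95% interval 0.70 to 1.12, adjusted p = 1.8e-04 by edgeR's quasi-likelihood test). As for *COL8A1*, the call held in all settings and with each library left out (0.86 to 0.97).

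*COL18A1*, whose C-terminal fragment is endostatin, was the gene of this class with the highest level per kb, at 203, 159 and 181 CPM in siNT and at 181, 165 and 157 CPM in siLTBP2. The groups overlapped, with a log2 fold change of -0.11 (SE 0.10, 95% interval -0.34 to 0.12, adjusted p = 0.51 by edgeR's quasi-likelihood test). Its gene model overlaps *SLC19A1* on the opposite strand by 20149 bases, and *SLC19A1* had 1426 to 2238 counts per library beside 7785 to 9786 for *COL18A1*. *COL7A1* was at 148 to 166 CPM in siNT and 133 to 179 CPM in siLTBP2 (log2 fold change -0.07).

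*COL15A1*, the close relative of *COL18A1*, was at 8.78, 4.46 and 7.23 CPM in siNT and at 3.74, 2.56 and 5.56 CPM in siLTBP2. The groups overlapped through siNT replicate 2 and siLTBP2 replicate 3, and its log2 fold change of -0.78 (SE 0.29, 95% interval -1.43 to -0.14, adjusted p = 0.088 by edgeR's quasi-likelihood test) was not called. It was called by edgeR's likelihood ratio test (adjusted p = 0.047) and by DESeq2 (adjusted p = 0.023). The remaining 6 genes, *COL6A5*, *COL6A6*, *COL23A1*, *COL25A1*, *COL26A1* and *COL28A1*, had at most 10 counts over all libraries, and *COL6A5* and *COL6A6* had none. A count of 0 allows up to 3 counts, which is 0.0560 to 0.0672 CPM depending on the library and covers counting error only.

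Markers of other tissues that express these collagens were measured beside them. Of 4 cartilage markers, *SOX9*, a transcription factor of cartilage and gut epithelium, was at 29.4, 23.3 and 30.1 CPM in siNT and at 80.9, 77.7 and 69.2 CPM in siLTBP2. It rose with a log2 fold change of 1.46 (SE 0.11, adjusted p = 4.4e-05 by edgeR's quasi-likelihood test), and *MATN3*, a cartilage matrix gene, rose by 0.99 (SE 0.16, adjusted p = 0.0022). *ACAN* was at 0 in all libraries, *CHAD* had 1 count, in siLTBP2 replicate 2, and *COL2A1* was near 0 as given above. The summed cartilage markers, nearly all of it *SOX9*, were at 25.8 to 32.8 CPM in siNT and 74.1 to 85.3 CPM in siLTBP2. Of 4 smooth muscle markers, the actin gene *ACTG2* rose by 0.57 and *SYNPO2* fell by 1.01 on the log2 scale, while *MYH11* and *DES* stayed at or under 0.106 CPM. Of 7 fibroblast markers, *PDGFRB* was lower (log2 fold change -0.60, SE 0.10) and the other 6 were not called. The part of these genes in the changes of *COL8A1*, *COL13A1*, *COL4A1* and *COL27A1* was not tested.

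Collagen chains are hydroxylated and folded in the endoplasmic reticulum, exported in large carriers, freed of their propeptides outside the cell and cross-linked, and cells bind the product through integrins and discoidin domain receptors. Genes of these steps were taken from 5 lists, and their shares of called genes stand beside the 19.3% of all genes for scale only. The lists were chosen with earlier results of these data known, and the smallest held 5 tested genes. No excess of called genes is therefore read from these shares.

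Of 20 folding and modification genes, all tested, 4 were higher, 2 lower and 14 not called (30.0% called), with a median log2 fold change of 0.16. *PLOD2*, the lysyl hydroxylase of the telopeptides, was at 102, 117 and 130 CPM in siNT and at 184, 183 and 236 CPM in siLTBP2. It rose by 0.78 on the log2 scale (SE 0.12, adjusted p = 0.0017 by edgeR's quasi-likelihood test) without overlap between the groups. *P4HA3*, a prolyl 4-hydroxylase subunit of low level (0.389 to 0.482 CPM in siNT, 0.780 to 1.02 CPM in siLTBP2), rose by 1.05 (SE 0.26, adjusted p = 0.017). Its more abundant relative *P4HA1* rose by 0.37 (SE 0.08, adjusted p = 0.012), and *P4HA2* rose too. *FKBP10*, a prolyl isomerase that acts on procollagen, fell by 0.40 (SE 0.11, adjusted p = 0.024 by edgeR's quasi-likelihood test), and *FKBP14* fell as well. With each library left out *PLOD2* kept its call. *P4HA1* lost it without siLTBP2 replicate 1 (adjusted p = 0.059), *P4HA3* without siNT replicate 1 or siLTBP2 replicate 2 (0.065 and 0.077), and *FKBP10* without siNT replicate 1, 2 or 3 or siLTBP2 replicate 3 (0.053 to 0.071). *P4HA2* and *FKBP14* each lost it in 4 of the 6 cases. *SERPINH1*, the collagen chaperone HSP47, was at 304 to 377 CPM in siNT and 354 to 446 CPM in siLTBP2 and was not called.

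Of 10 export genes 1 was called (10.0%), *SEC24C*, a cargo adaptor of COPII vesicles, which fell by 0.52 (SE 0.11, adjusted p = 0.0070 by edgeR's quasi-likelihood test). Of 9 genes for removal of propeptides 5 were tested, and 2 of them were lower (40.0%). *FURIN*, a proprotein convertase, was at 141, 103 and 135 CPM in siNT and at 69.9, 72.2 and 69.3 CPM in siLTBP2. The groups stood apart, and it fell by 0.84 (SE 0.12, adjusted p = 7.3e-04 by edgeR's quasi-likelihood test). *ADAMTS14*, an N-propeptidase, fell by 1.27 (SE 0.32, adjusted p = 0.020) from a level of 2.21 to 5.10 CPM in siNT to one of 1.10 to 2.18 CPM in siLTBP2. The call of *ADAMTS14* was lost without siNT replicate 1 or 2 or siLTBP2 replicate 2 (adjusted p of 0.068 to 0.078), while those of *FURIN* and *SEC24C* held with each library left out. *BMP1*, the main C-propeptidase, was not called (log2 fold change 0.16).

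Of the 5 lysyl oxidases, which start the cross-links between collagen molecules, 2 were higher (40.0%), with a median log2 fold change of 0.39. *LOX* was at 179, 143 and 153 CPM in siNT and at 384, 333 and 360 CPM in siLTBP2. The lowest siLTBP2 library was well above the highest siNT library, and the log2 fold change was 1.18 (SE 0.11, adjusted p = 7.6e-05 by edgeR's quasi-likelihood test). *LOXL1* rose by 0.39 (SE 0.10, adjusted p = 0.017). The call of *LOX* held with each library left out, and that of *LOXL1* was lost without siNT replicate 2 or 3 or siLTBP2 replicate 1 or 2 (adjusted p of 0.056 to 0.088).

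Of 10 receptor genes 8 were tested, of which 2 were higher and 1 lower (37.5%). *ITGB1*, the beta subunit shared by all collagen-binding integrins, was at 677, 704 and 763 CPM in siNT and at 1343, 1315 and 1347 CPM in siLTBP2. It rose by 0.90 (SE 0.09, adjusted p = 1.8e-04 by edgeR's quasi-likelihood test) without overlap between the groups. Of its partner subunits, *ITGA2* rose by 0.74 (SE 0.19, adjusted p = 0.022) and *ITGA1* fell by 0.48 (SE 0.08, adjusted p = 0.0023), while *ITGA11* had a log2 fold change of -0.27 and was not called. Of these calls only that of *ITGA2* was lost with a library left out, without siNT replicate 1 (adjusted p = 0.051).

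**Figure D4:**
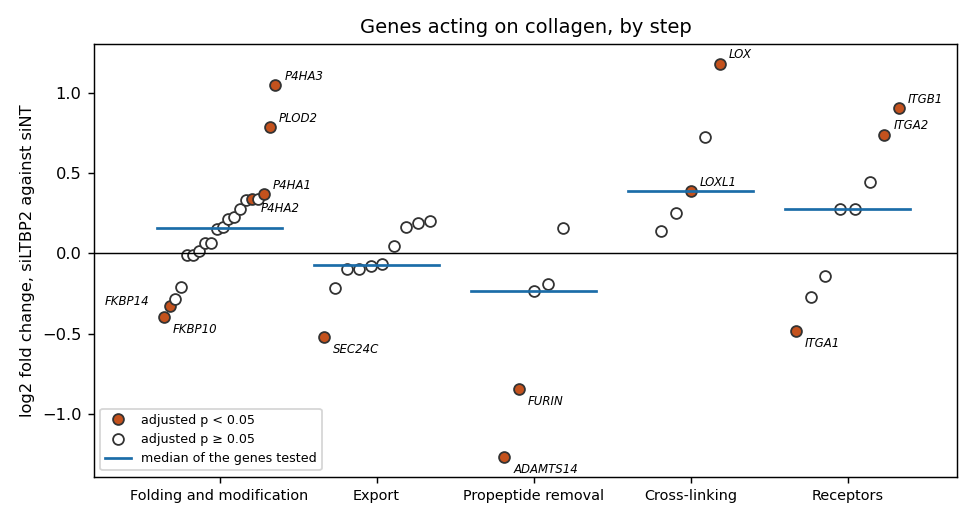
Log2 fold change of siLTBP2 against siNT (vertical axis) for the genes tested in 5 lists of steps that act on collagen, with filled points for an adjusted p below 0.05 and a line at the median of each list. The called genes of largest rise are *LOX* (1.18), *P4HA3* (1.05) and *ITGB1* (0.90), and those of largest fall are *ADAMTS14* (-1.27) and *FURIN* (-0.84).

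In an earlier search of these data, the word GCACCCA in the 3′ UTR went with lower levels after silencing. Of the 12461 coding genes with a 3′ UTR used here, 1455 (11.7%) carried it, with a median log2 fold change of -0.15 beside 0.02 for the others. These medians come from the data that were searched, so they are no independent test of the word. Of the 21 collagen genes tested only *COL11A2* carried it, so none of the 4 called genes did. With 11.7% of genes as carriers, its absence from 4 genes is unremarkable, and nothing is read from it.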

How the data were processed

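Total RNA of 6 CCD18Co libraries was sequenced by the study. The authors aligned the reads to GRCh38 with STAR 2.7.1a and deposited the raw gene counts of HTSeq 0.11.2, without normalization. The strand setting is not given in the sources used here, nor is the annotation release. No column of another series was used. Genes were filtered with filterByExpr, normalized by TMM and tested over the whole table with edgeR 4.0.16 in R 4.3.3 (quasi-likelihood, two-sided, no block). Each standard error was obtained from the log2 fold change and the square root of the F statistic. Levels per kb used union exon lengths of GENCODE 44. Libraries of 1 group were not duplicates, as the chi-square per degree of freedom was 27.7 to 55.1. Steps were tested on simulated data. The members and gene lists were chosen with earlier results of these data known. Named genes were all members, with full statistics for called genes, the highest gene per class and partner chains, and at most 4 called genes per pathway list. Alternatives were the likelihood ratio test, other thresholds, DESeq2 1.42.0, a block of replicate numbers, scaling by RLE, upper quartile or total counts, no filter or one at 1 CPM in 3 libraries, and the omission of each library.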

Additional observations from a re-analysis of the deposited data

How the results depend on the processing

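*COL8A1* and *COL13A1* kept their calls and direction under each alternative run, except that *COL13A1*, with a 1.88-fold rise, failed a threshold of 2-fold. Of the 4 called collagen genes 1 was lower, and 2 were lower by the likelihood ratio test and by DESeq2. With no low-count filter 10 of 35 collagen genes were called, 6 higher and 4 lower, beside 11.5% of the 33596 genes then tested, and 2 passed the stricter rule, both higher, the second being *COL9A2* with 20 counts in 1 library. At an adjusted p below 0.01, and at a fold change above 1.5, 2 were called and 0 were lower. Scaling by total counts called 2 export genes, and no scaling moved the median log2 fold change of all genes beyond -0.04.

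With the replicate number as a block, 11 of 21 collagen genes were called, 6 higher and 5 lower, beside 36.2% of all genes. Beside the 4, *COL1A2* (0.29, SE 0.08, adjusted p = 0.0041), *COL4A2* (0.20, SE 0.08, 0.033) and *COL5A2* (0.37, SE 0.07, 1.8e-04) were higher. Lower were *COL1A1* (-0.23, SE 0.08, adjusted p = 0.023), *COL3A1* (-0.41, SE 0.08, 1.8e-04), *COL4A6* (-0.40, SE 0.09, 0.0010) and *COL15A1* (-0.79, SE 0.15, 6.4e-05). The adjusted p values are from edgeR's quasi-likelihood test with the block. The block called 12 folding, 4 export, 4 cross-linking and 7 receptor genes. Between libraries of the same number the deviations from the group means correlated at 0.298, 0.083 and 0.428, and between the others at -0.391 to 0.103. Each siLTBP2 library correlated best with the siNT library of its own number. However, siNT replicate 2 correlated slightly better with siLTBP2 replicate 1 (0.103) than with siLTBP2 replicate 2 (0.083). The labels do not say what the numbers share, so the pairing was not used in the main test. If equal numbers were handled together, that test counted shared variation as error. Genes called only with the block are therefore not shown to be unchanged.

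With each library left out, 2 to 5 of 21 or 22 collagen genes were called and 0 to 1 lower, while 12.4 to 15.9% of all genes were called in place of 19.3%. The count was 2 without siNT replicate 2, and none was lower if replicate 1 or 2 of siNT or replicate 2 of siLTBP2 was absent. Called genes ranged from 3 to 6 in the folding list (3 in the absence of siNT 2, siLTBP2 1 or siLTBP2 2), from 1 to 2 for propeptide removal (1 in the absence of siNT 1, siNT 2 or siLTBP2 2) and from 1 to 3 for cross-linking (1 in the absence of siNT 2, siNT 3, siLTBP2 1 or siLTBP2 2). The fibrillar median ranged from -0.26 (without siLTBP2 replicate 1) to 0.09. The log2 fold change changed sign in genes that were not called, with ranges of -0.09 to 0.27 for *COL4A5*, -0.25 to 0.07 for *COL5A1*, -0.21 to 0.01 for *COL7A1*, -0.07 to 0.78 for *COL11A1*, -0.26 to 0.80 for *COL11A2* and -0.11 to 0.21 for *COL12A1*. The values were -0.08 for *COL12A1* without siNT replicate 3 and -0.21 for *COL11A2* without siNT replicate 1. Apart from the smaller number of libraries, the cause was not tested. The 19 members under the filter had at most 20 counts in a library, too few for a test here.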
